A study of Homo sapiens with 6 samples.

Results

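The 10 genes described here encode the 5 subunits of the transcription factor NF-kB (NFKB1, NFKB2, RELA, RELB and REL), 3 proteins of the IkB inhibitor family (NFKBIA, NFKBIE and NFKBIZ) and 2 ubiquitin enzymes that tune the signal leading to it (TNFAIP3 and BIRC3). They were chosen as a list of symbols, and all 10 were found among the 58381 genes of the count tables and passed the filter on low counts. RNA with poly-A tails was sequenced from 786-0 cells, an established line of human clear cell renal carcinoma, and every library carries the genotype label SETD2 KO, a knockout of the enzyme that trimethylates lysine 36 of histone H3. Cells received the vehicle DMSO, decitabine at 100 nM or decitabine at 300 nM on each of 3 days, had their medium renewed on day 4, and were collected on day 5. Each of these 3 groups has 2 libraries, 6 in all, and no library with intact SETD2 was analysed here, so every comparison is one of dose within knockout cells. Decitabine takes the place of deoxycytidine in new DNA and binds up the enzymes that copy methylation, which thins out over cell divisions. By the title, the study asks how SETD2 loss bears on the response of kidney cancer cells to such agents. The labels do not say how the knockout was made, whether the line is a single clone, or whether each library of a group is a culture of its own, so the p-values gauge only how far these libraries differ, which may be technical.

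Reads assigned to genes numbered 89159112 to 96646427 per library. SETD2 mRNA stood at 77.9 and 81.2 reads per 1000000 assigned reads, scaled by TMM (CPM), with DMSO, 39.8 and 49.1 with 100 nM and 16.4 and 21.7 with 300 nM. Since reads over SETD2 do not show whether its protein is made, these levels do not test the genotype label. Of 10 genes that mark renal carcinoma cells, 9 stood at 1 CPM or more in every library, and their summed level was 3400 to 3438 CPM with DMSO, 3584 to 3749 CPM at 100 nM and 4761 to 5680 CPM at 300 nM. Most of that sum is VIM, KRT8 and KRT18. Of the 10 markers 4 were called higher and 3 lower at 100 nM, and 5 higher and 4 lower at 300 nM. Of all genes tested 24.0% were called higher and 18.7% lower at 100 nM, and 34.8% and 31.1% at 300 nM. The 4 markers lower at 300 nM, named after their values were seen, were PAX8 (log2 fold change -1.66), PAX2 (-0.42), CDH6 (-3.05) and CP (-2.23). The 10th, CA9, had 0 reads with DMSO, which allows up to 3 reads per library, or 0.0323 CPM, if mates are not counted separately. It is among those called higher at both doses, on 8 and 14 reads at 100 nM and 24 and 27 at 300 nM. Without CA9, 3 and 4 of the other 9 were called higher. Summed over 14 leukocyte markers the level was 5.00 to 5.30 CPM with DMSO, 11.4 to 12.0 CPM at 100 nM and 12.8 to 16.3 CPM at 300 nM. PTPRC, the defining marker of leukocytes, lay at 0.0636 CPM, 0.0579 CPM and 0.0242 CPM, the group means in the same order, and the B cell marker MS4A1 had 0 reads in all 6 libraries. For 6 endothelial markers the sums were 1.22 to 1.51, 2.19 to 2.47 and 4.90 to 5.44 CPM.

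NF-kB proteins act as dimers. RELA, RELB and REL carry the parts that activate transcription, while NFKB1 and NFKB2 are made as precursors that are cut to DNA-binding subunits. In resting cells IkB proteins hold the dimers in the cytoplasm. Signals from receptors for TNF, interleukin-1 and microbial products activate the IKK kinase, which marks IkB for destruction, and the freed dimers enter the nucleus. Several of their targets are genes of the pathway itself: NFKBIA rebuilds the inhibitor, TNFAIP3 edits ubiquitin chains and stops the signal, and BIRC3 adds ubiquitin to signalling proteins at the receptor. A second route, through the kinase MAP3K14, processes NFKB2 and frees dimers of NFKB2 with RELB. In clear cell renal carcinoma, loss of the VHL tumour suppressor has been linked to NF-kB activity.

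Promoter sequences, from 250 bases before to 50 bases after each gene start, were taken from RefSeq on GRCh38.p14, which gave 13 promoters for 8 of the genes; RELB and NFKBIE are named only. Both strands were searched for the 10-base NF-kB consensus. At least 1 match lay in 9 of the 13 promoters and in a promoter of 7 of the 8 genes, RELA being the exception, while 11.3% of the 35116 promoters in the table held a match. These genes include known targets of NF-kB, and their promoters have a higher median count of CG dinucleotides. Setting these shares side by side is therefore no test of enrichment. The 250 bases before the start are shown for 4 genes chosen to show the different courses their RNA took over the doses: NFKBIA and TNFAIP3, which were higher at both doses, BIRC3, which was higher at 100 nM and lower at 300 nM before any correction for base composition, and REL, which was lower at both. In a fit that takes exon length and GC content into account, neither fall of REL was called. Capitals mark the stretches that match on either strand, and each sequence runs 5′ to 3′ on the strand of its gene.
NFKBIA: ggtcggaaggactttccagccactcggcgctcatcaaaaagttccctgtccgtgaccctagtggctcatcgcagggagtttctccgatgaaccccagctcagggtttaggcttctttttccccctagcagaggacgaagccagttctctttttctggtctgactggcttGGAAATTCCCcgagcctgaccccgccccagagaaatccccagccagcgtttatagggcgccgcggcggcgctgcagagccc
TNFAIP3: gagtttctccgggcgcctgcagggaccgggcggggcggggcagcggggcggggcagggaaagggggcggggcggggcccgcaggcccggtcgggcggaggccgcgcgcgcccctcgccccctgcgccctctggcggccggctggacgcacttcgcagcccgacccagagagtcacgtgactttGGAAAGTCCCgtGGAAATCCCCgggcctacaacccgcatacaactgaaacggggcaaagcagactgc
BIRC3: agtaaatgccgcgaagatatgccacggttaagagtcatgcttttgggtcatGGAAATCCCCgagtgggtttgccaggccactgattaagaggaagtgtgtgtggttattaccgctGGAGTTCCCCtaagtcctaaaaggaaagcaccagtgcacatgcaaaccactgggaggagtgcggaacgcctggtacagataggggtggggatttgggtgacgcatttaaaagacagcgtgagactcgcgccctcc
REL: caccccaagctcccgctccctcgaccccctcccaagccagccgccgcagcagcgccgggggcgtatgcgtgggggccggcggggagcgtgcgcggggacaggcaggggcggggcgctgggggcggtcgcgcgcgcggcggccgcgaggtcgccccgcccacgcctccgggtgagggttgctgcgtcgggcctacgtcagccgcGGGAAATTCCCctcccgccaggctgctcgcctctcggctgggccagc

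The NFKBIA stretch is chr14:35404750-35404999 on the minus strand, and its 1 match begins 81 bases before the start. That of TNFAIP3 is chr6:137867009-137867258 on the plus strand, with matches that begin 67 and 55 bases before the start. BIRC3 has its stretch at chr11:102317234-102317483 on the plus strand, with matches that begin 199 and 135 bases before the start. For REL the stretch is chr2:60881324-60881573 on the plus strand, and overlapping matches on opposite strands begin 47 and 46 bases before the start. In the gene models of the count tables the matches of TNFAIP3 and REL fall within the first exon, while those of NFKBIA and BIRC3 lie outside any exon of the gene. Genes that were higher and genes that were lower after decitabine thus both hold the consensus letters. Among the latter, NFKBIZ, whose sequence is not shown, was called lower at both doses also when exon length and GC content were taken into account. A match is a run of letters and no evidence that the factor binds there. CG dinucleotides, the pairs at which human DNA is methylated, numbered 22 in the 300-base window of NFKBIA, 35 in that of TNFAIP3, 15 in that of BIRC3 and 41 in that of REL. The median was 28 over the 13 promoters and 14 over all promoters of the table, and 12 of the 13 were at or above the latter. Methylation of these sites was not measured in these data.

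At 100 nM against DMSO, 8 of the 10 genes rose and 2, REL and NFKBIZ, fell (edgeR's quasi-likelihood test, Benjamini-Hochberg adjusted p under 0.05). Among the 23160 genes tested, 24.0% were called higher and 18.7% lower in that comparison, and 42.7% were called in either direction. At 300 nM against DMSO, 7 rose and 3 fell, the third being BIRC3, whose direction at that dose reverses when the fit takes exon length and GC content into account. In that fit REL was not called at either dose. The background there was 34.8% higher, 31.1% lower and 65.9% in either direction. The median log2 fold change of the 10 genes was 1.12 at 100 nM and 1.63 at 300 nM, against 0.03 and 0.05 over all genes tested. With offsets for length and GC content it was 1.09 and 0.92, against -0.13 and -0.11, so the median was higher at 300 nM than at 100 nM in the TMM-scaled fit alone among these 2 fits. Both doses were compared with the same DMSO libraries, so the 2 sets of values are not independent. In a population of cells, fewer cells of a kind and less RNA per cell cannot be told apart.

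**Figure D1:**
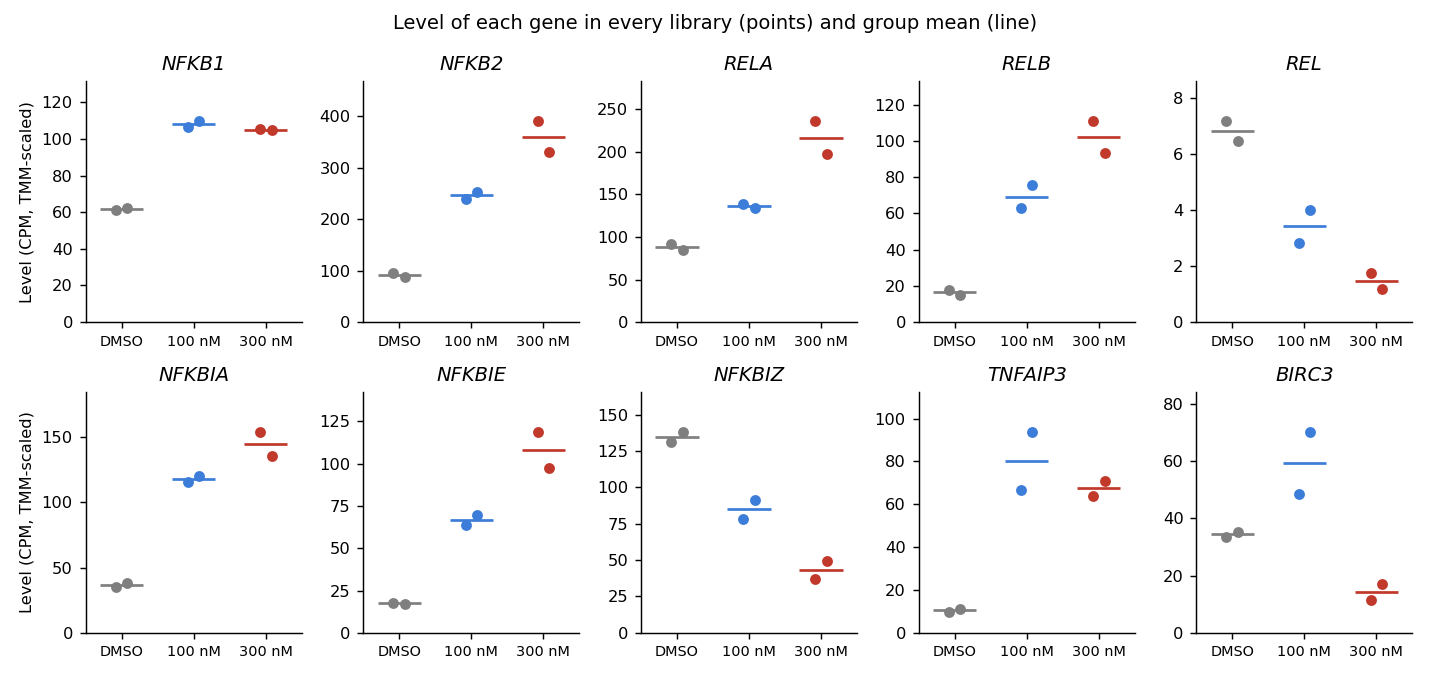
Level of each of the 10 genes in every library, in TMM-scaled CPM on axes that start at 0, for DMSO, 100 nM and 300 nM decitabine; points are libraries and lines are group means of 2. Within each gene the DMSO points lie apart from the points at either dose, and on this scale, with no offsets for length and GC content, BIRC3 is highest at 100 nM and lowest at 300 nM.

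RELA, on the minus strand at chr11:65653596-65663094, encodes the activating partner of the most common NF-kB dimer. Its level was 91.5 and 85.3 CPM with DMSO, 139 and 134 CPM at 100 nM and 236 and 197 CPM at 300 nM. The 3 groups did not overlap, and each dose stood above the one before it. RELA rose 1.55-fold at the lower dose (log2 0.63, SE 0.11, adjusted p = 1.6e-04) and 2.45-fold at the higher (log2 1.29, SE 0.11, adjusted p = 1.7e-08). NFKB1, at chr4:102501329-102617302, makes the subunit that pairs with RELA. It had 61.1 and 62.3 CPM with DMSO, 106 and 109.7 CPM at 100 nM and 105 CPM in each library at 300 nM. The 4 treated libraries lay close together and well above both controls. The rise was 1.75-fold at 100 nM (log2 0.81, SE 0.10, adjusted p = 4.8e-06) and 1.70-fold at 300 nM (log2 0.77, SE 0.10, adjusted p = 3.6e-06).

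Of the subunits, RELB and NFKB2, the pair of the MAP3K14 route, had the highest fold changes at each dose. RELB, at chr19:45001430-45038198, was at 17.9 and 15.0 CPM with DMSO, 62.7 and 76.0 CPM at 100 nM and 111 and 93.4 CPM at 300 nM. No treated library came near the controls, and the groups at the 2 doses did not overlap. RELB was thus 4.21-fold higher at 100 nM (log2 2.07, SE 0.14, adjusted p = 1.7e-09) and 6.21-fold higher at 300 nM (log2 2.63, SE 0.14, adjusted p = 4.0e-11). NFKB2, at chr10:102394110-102402529, measured 95.8 and 87.8 CPM with DMSO, 239.7 and 253 CPM at 100 nM and 389.8 and 329.8 CPM at 300 nM. Its levels were ordered by dose without overlap. At 100 nM it rose 2.68-fold (log2 1.42, SE 0.11, adjusted p = 1.1e-08), and at 300 nM 3.92-fold (log2 1.97, SE 0.11, adjusted p = 7.8e-11). The values of MAP3K14 itself are given after they were seen. Its log2 fold change was -0.30 at 100 nM (adjusted p = 0.044) and 0.46 at 300 nM (adjusted p = 0.0022). With length and GC offsets it was -0.64 and -0.17.

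REL, at chr2:60881521-60931610, encodes the subunit best known from lymphocytes, and it was the lowest of the 5 in every library. It had 7.17 and 6.45 CPM with DMSO, 2.82 and 4.01 CPM at 100 nM and 1.74 and 1.18 CPM at 300 nM. Each dose lay below the one before it with no overlap. Against DMSO the direction of REL was opposite to that of the other subunits. REL fell by 0.99 on the log2 scale (SE 0.21, adjusted p = 0.0010) at the lower dose and fell by 2.22 at the higher (SE 0.23, adjusted p = 1.6e-07), which is 1.99-fold and 4.67-fold lower. With length and GC offsets the falls were smaller and were not called, at -0.39 (adjusted p = 0.128) and -0.51 (adjusted p = 0.0565). Of its 13170 exon bases, 5702 (43.3%) are also exon of AC010733.2, a non-coding gene on the same strand that was listed at 0 reads in all 6 libraries. The recorded counting command holds no option for reads that overlap several genes, so the REL levels rest on its other 7468 bases.

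Among the inhibitors, NFKBIA and NFKBIE rose with decitabine and NFKBIZ fell. NFKBIA, on the minus strand at chr14:35401511-35404749, encodes the main IkB, which is destroyed on signalling and made again. Its level was 35.0 and 38.2 CPM with DMSO, 115 and 120.1 CPM at 100 nM and 154 and 136 CPM at 300 nM. Both doses stood far above the controls, and the 300 nM libraries above those at 100 nM by less. The log2 fold change of NFKBIA was 1.69 (SE 0.11, adjusted p = 1.5e-09) and 1.98 (SE 0.11, adjusted p = 8.2e-11), or 3.22-fold and 3.96-fold, at 100 nM and 300 nM. NFKBIE, on the minus strand at chr6:44258166-44265788, encodes a second cytoplasmic IkB. It went from 17.8 and 17.3 CPM with DMSO to 63.5 and 69.7 CPM at 100 nM and 119 and 97.7 CPM at 300 nM. The groups were again ordered by dose with gaps between them. NFKBIE was 3.79-fold higher at the lower dose (log2 1.92, SE 0.12, adjusted p = 1.2e-09) and 6.16-fold higher at the higher (log2 2.62, SE 0.13, adjusted p = 1.3e-11).

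NFKBIZ, at chr3:101827991-101861022, encodes a nuclear IkB that works with NFKB1 on a subset of targets. It read 131 and 138 CPM with DMSO, 78.2 and 91.5 CPM at 100 nM and 36.9 and 49.3 CPM at 300 nM. Its groups did not overlap and ran downward with dose. NFKBIZ fell by 0.67 on the log2 scale at 100 nM (SE 0.13, adjusted p = 4.9e-04) and fell by 1.64 at 300 nM (SE 0.13, adjusted p = 9.4e-09), or 1.59-fold and 3.13-fold lower. Offsets for length and GC kept both falls, at -0.75 and -1.52.

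TNFAIP3, at chr6:137867188-137883312, had the highest fold change of the 10 genes at 100 nM in every fit made. At 300 nM it was close to RELB and NFKBIE, and below both without 300 nM replicate 2 (2.61 against 2.75 and 2.76) or without DMSO replicate 1 (2.60 against 2.76 and 2.64). It stood at 9.92 and 11.1 CPM with DMSO, 66.5 and 93.8 CPM at 100 nM and 64.1 and 70.7 CPM at 300 nM. Treated libraries were all far above the controls, and the 2 doses overlapped. TNFAIP3 rose 7.62-fold at 100 nM (log2 2.93, SE 0.15, adjusted p = 9.6e-11) and 6.41-fold at 300 nM (log2 2.68, SE 0.15, adjusted p = 1.1e-10). An antisense gene, AL357060.1, shares 95 bases (1.88%) of its exons, and strand was not used in the counting. That gene held 41 and 30 reads with DMSO, 114 and 121 with 100 nM and 110 and 121 with 300 nM, against 954 to 8668 for TNFAIP3.

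BIRC3, at chr11:102317450-102339403, was the 1 gene of the 10 whose called direction differed between the doses. It was at 33.7 and 35.4 CPM with DMSO, at 48.6 and 70.2 CPM at 100 nM and at 11.4 and 17.0 CPM at 300 nM. The 100 nM libraries lay above both controls and the 300 nM libraries below them. BIRC3 rose by 0.78 on the log2 scale at 100 nM (SE 0.18, adjusted p = 0.0016) and fell by 1.28 at 300 nM (SE 0.18, adjusted p = 8.1e-06), or 1.72-fold higher and 2.43-fold lower. With length and GC offsets it was higher at both doses, with log2 fold changes of 1.37 (adjusted p = 4.4e-08) and 0.58 (adjusted p = 1.7e-04), so its direction at 300 nM depends on that setting. BIRC2, its near relative and next to it on the chromosome, was named after its values were seen. Its mean level was 90.6 CPM with DMSO, 53.2 CPM at 100 nM and 18.4 CPM at 300 nM, with log2 fold changes of -0.77 and -2.30, or -0.45 and -1.12 with the offsets.

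**Figure D2:**
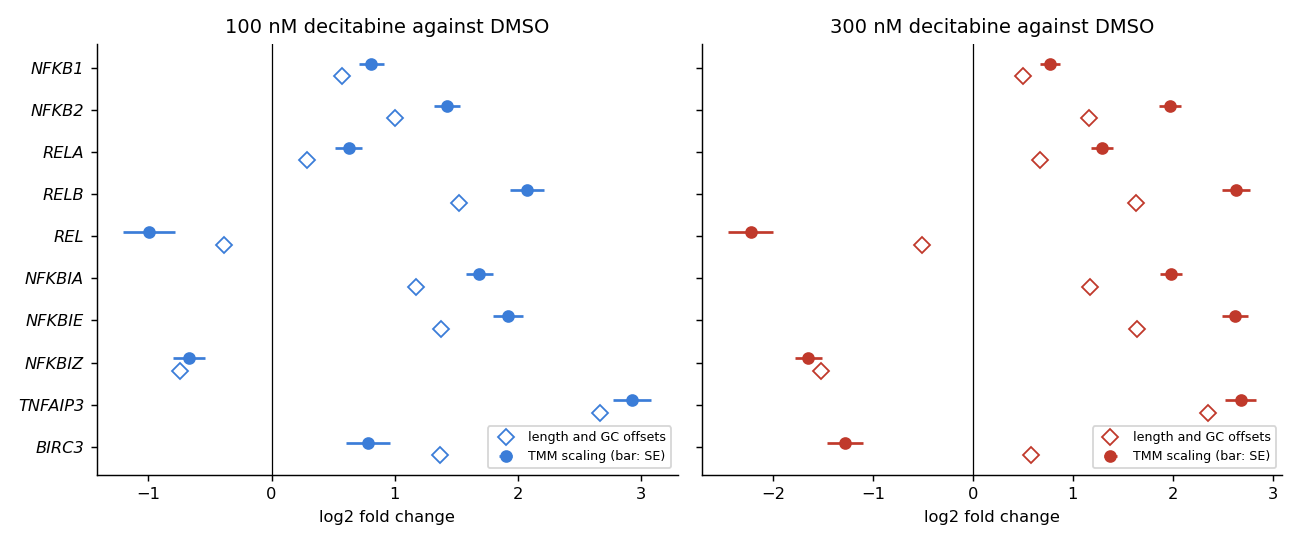
Log2 fold change against DMSO for each of the 10 genes at 100 nM (left) and 300 nM (right); filled points with bars are the TMM-scaled fit and its SE, open diamonds the fit that takes exon length and GC content into account. BIRC3 at 300 nM lies at -1.28 in the TMM-scaled fit and at 0.58 with offsets, while the other genes keep their side of 0.

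Between the doses, 5 genes were higher at 300 nM than at 100 nM (NFKB2, RELA, RELB, NFKBIA and NFKBIE), 3 were lower (REL, NFKBIZ and BIRC3) and 2 were not called. Of all genes tested, 20.0% were called higher, 23.4% lower and 43.4% in either direction between the doses. BIRC3 differed most, at -2.07 on the log2 scale (SE 0.18, adjusted p = 2.5e-07), followed by REL at -1.23 (adjusted p = 3.3e-04) and NFKBIZ at -0.98 (adjusted p = 1.7e-05). NFKBIE rose further by 0.70 (adjusted p = 1.5e-04), RELA by 0.66 (adjusted p = 1.1e-04), RELB by 0.56 (adjusted p = 0.0022) and NFKB2 by 0.55 (adjusted p = 5.2e-04). NFKBIA rose by 0.30 (adjusted p = 0.032), a call that was lost in every fit without 1 library except that without 300 nM replicate 2 (adjusted p up to 0.205). NFKB1 was at -0.04 (adjusted p = 0.776). TNFAIP3 was at -0.25 (adjusted p = 0.170) and turned on the 100 nM libraries, at -0.50 (adjusted p = 0.010) without replicate 1 and 0.01 (adjusted p = 0.964) without replicate 2. With length and GC offsets 2 of the 5 rises between doses kept their call, RELA at 0.39 and NFKBIE at 0.27, while NFKB2 was at 0.16 (adjusted p = 0.0687), RELB at 0.11 (adjusted p = 0.426) and NFKBIA at 0.00078 (adjusted p = 0.996). Of the 3 falls, REL lost its call with the offsets, at -0.12 (adjusted p = 0.715), while BIRC3 at -0.79 and NFKBIZ at -0.77 kept theirs.

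Levels can be compared between genes only per length, and for this each CPM was divided by the kilobases of exon that the gene does not share with another (RPKM). With DMSO the order ran from NFKBIZ at 22.8 RPKM and NFKB2 at 20.5 RPKM through RELA at 16.2 and NFKBIA at 15.4 to NFKB1 at 9.86, NFKBIE at 6.81, RELB at 5.42, BIRC3 at 4.59, TNFAIP3 at 2.12 and REL at 0.911 RPKM. Only RELA and NFKBIA overlapped in the ranges of their libraries among neighbours in that order. NFKB2 was at the top at 100 nM, with 55.0 RPKM, ahead of NFKBIA with 49.6 RPKM. NFKBIE at 25.8, RELA at 25.0 and RELB at 22.8 RPKM came next and overlapped from neighbour to neighbour, as did NFKB1 at 17.3, TNFAIP3 at 16.2 and NFKBIZ at 14.4 RPKM. BIRC3 at 7.90 and REL at 0.458 RPKM closed the order. At 300 nM the order of the 10 genes was the same as at 100 nM, from NFKB2 at 80.2 and NFKBIA at 61.0 RPKM to BIRC3 at 1.88 and REL at 0.196 RPKM. NFKBIZ thus went from the first place to the eighth.

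The summed RPKM of the 5 subunits was 54.7 and 51.0 in the DMSO libraries, 117 and 124 in those at 100 nM, and 184 and 157 in those at 300 nM, without overlap. Within this sum NFKB2 made up 38.7% ± 0.43 (SD, n = 2) in DMSO, 45.6% ± 0.14 after the lower dose and 47.0% ± 0.39 after the higher. RELB went from 10.2% ± 0.74 to 18.9% ± 1.76 and 19.7% ± 0.23. The share of RELA was 30.6% ± 0.024, 20.8% ± 1.40 and 23.2% ± 0.42, that of NFKB1 18.7% ± 1.19, 14.3% ± 0.30 and 9.90% ± 1.05, and that of REL 1.72% ± 0.042, 0.378% ± 0.078 and 0.114% ± 0.018. So NFKB2 and RELB together held the larger share of subunit RNA after decitabine, and the share of the other 3 was smaller at both doses than with DMSO. The ratio of NFKBIA to RELA in RPKM was 0.881 and 1.031 in the controls, 1.911 and 2.061 after the lower dose, and 1.501 and 1.586 after the higher. It was highest at 100 nM, with no overlap between the groups. The summed RPKM of the 3 inhibitors over that of the 5 subunits ran the other way, at 0.803 and 0.907 with DMSO, 0.739 and 0.750 after the lower dose, and 0.637 and 0.657 after the higher. Of these 3, NFKBIZ was the highest with DMSO, at 22.8 RPKM, and lay at 14.4 RPKM at 100 nM and 7.30 RPKM at 300 nM. NFKBIA and NFKBIE rose, so the lower ratio after decitabine rests on counting NFKBIZ, a nuclear IkB, among the inhibitors. The direction of an inhibitor to subunit ratio thus depended on the genes taken. RNA shares do not give the amounts of the proteins or of their dimers. The sums, shares and ratios rest on TMM-scaled levels without the length and GC offsets. NFKB2 and RELB have the highest GC content of the 5 subunits, at 62.4% and 65.4%. With the offsets neither of them, nor REL, was called between the doses.

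**Figure D3:**
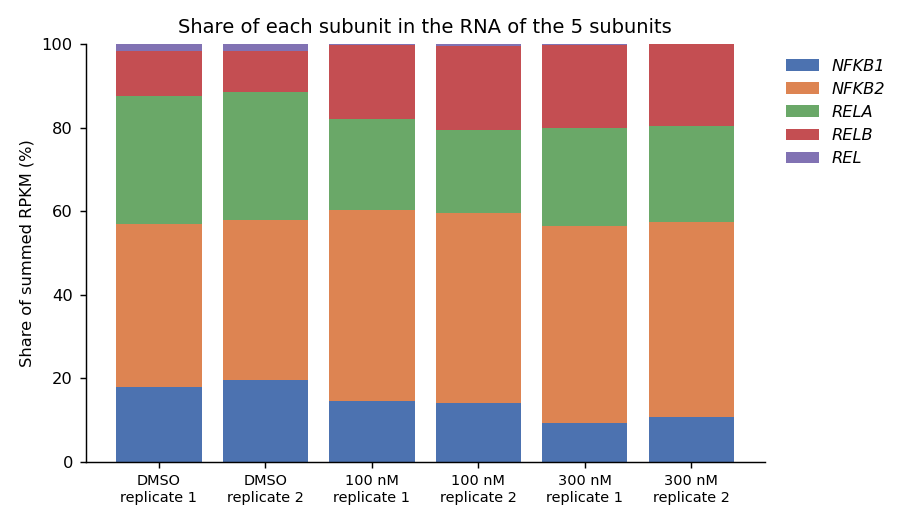
Share of each subunit in the summed RPKM of NFKB1, NFKB2, RELA, RELB and REL, in percent, 1 bar per library. RPKM was TMM-scaled, with no offsets for length and GC content. The parts of NFKB2 and RELB are larger in the 4 decitabine libraries than in the 2 DMSO libraries, and the part of REL is the thinnest in each bar.

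The 10 genes differ widely in base composition, and across all genes the fold changes moved with it. GC content of the longest transcript was 34.8% for BIRC3, 38.7% for REL, 46.2% for NFKBIZ, 49.5% for TNFAIP3, 50.1% for NFKB1, 53.1% for NFKBIA, 57.1% for RELA, 61.0% for NFKBIE, 62.4% for NFKB2 and 65.4% for RELB. Over all expressed coding genes the median was 48.5%. The 3 genes that were lower at 300 nM than with DMSO are those with the lowest GC content, BIRC3 being so in the TMM-scaled fit alone. Across the 10 genes GC content and log2 fold change had a Spearman correlation of 0.55 at 100 nM, 0.65 at 300 nM and 0.90 between the doses, and a Pearson correlation of 0.56, 0.83 and 0.94. Across 14429 genes the Spearman correlation was 0.35, 0.57 and 0.67. For exon length it was -0.73, -0.79 and -0.73 across the 10 genes, farther from 0 than for GC content in both comparisons with DMSO, and -0.27, -0.33 and -0.32 across all. These are descriptions across genes measured in the same libraries, and genes are not independent replicates. Of the 10% of these genes with the lowest GC content, which hold REL and BIRC3, the median was -0.52 at 100 nM and -1.53 at 300 nM on the log2 scale, with quartiles of -2.34 and -0.78 at the latter. In the 10% with the highest, which hold NFKB2 and RELB, it was 0.15 and 0.57, with quartiles of 0.04 and 1.30 at 300 nM. REL at -2.22 and BIRC3 at -1.28 lay between the quartiles of their class at 300 nM, and NFKB2 at 1.97 and RELB at 2.63 lay above the upper quartile of theirs. At 100 nM REL at -0.99 lay below the lower quartile of that class (-0.88) and BIRC3 at 0.78 above its upper quartile (-0.16). NFKBIZ at 300 nM, at -1.64, lay below the lower quartile of its own class (-0.52).

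The offsets remove the smoothed trend of each library over exon length and GC content. With them TNFAIP3 had log2 fold changes of 2.67 and 2.36 at 100 nM and 300 nM, NFKBIE 1.38 and 1.65, RELB 1.52 and 1.63, NFKBIA 1.17 and 1.18, NFKB2 1.00 and 1.16, RELA 0.29 and 0.67, and NFKB1 0.58 and 0.50. Each of these 7 genes kept its call at both doses, although RELA at 100 nM went from 0.63 to 0.29. The count of the 10 genes called lower went from 2 to 1 at 100 nM and from 3 to 1 at 300 nM, NFKBIZ being the 1 that remained. Over all genes, calls higher made up 43.2% of calls at 100 nM against DMSO with the offsets and 56.2% without.

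**Figure D4:**
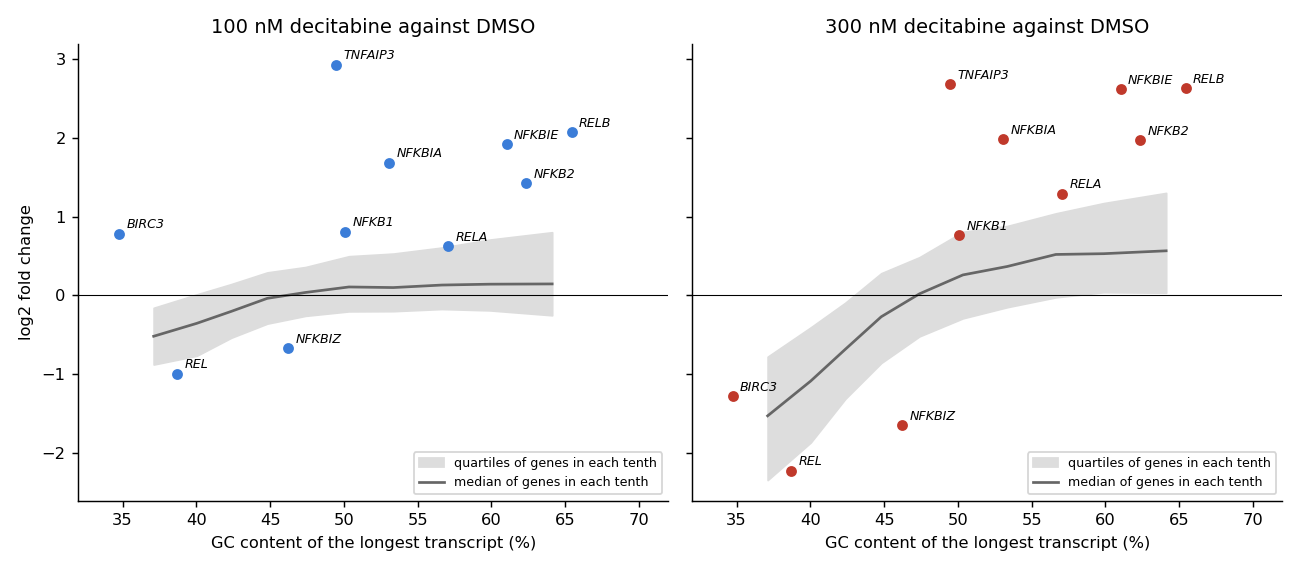
Log2 fold change against DMSO by GC content of the longest transcript, at 100 nM (left) and 300 nM (right); the grey line and band are the median and quartiles of all genes in 10 equal classes of GC content, and points are the 10 genes. The band runs from a median of -1.53 in the lowest class to 0.57 in the highest at 300 nM. TNFAIP3, RELB, NFKBIE, NFKBIA, NFKB2 and RELA lie above it at both doses. RELA does so narrowly at 100 nM, at 0.63 against an upper quartile of 0.61 in its class.

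The other genes of the pathway were counted by role, in lists chosen with earlier results of these data known. Their counts are therefore not independent of those results. Of 29 tested target genes of NF-kB (chemokines, cytokines, adhesion molecules and survival genes), 27 rose at 100 nM and 0 fell, and 27 rose and 1 fell at 300 nM. The 1 that fell was TNFAIP8 (-0.40), whose direction reverses with the offsets (0.83). It was named after its values were seen, as was GADD45B. The median log2 fold change of the 29 targets was 2.30 at each dose. Of all genes 24.0% were called higher and 18.7% lower at 100 nM, and 34.8% and 31.1% at 300 nM. Among the targets 1 had fewer than 10 reads in both DMSO libraries, and of the other 28, 26 rose at each dose. With the offsets 28 of the 29 targets were called higher and 1 lower at 100 nM, and 27 and 1 at 300 nM. The lower 1 was GADD45B at each dose (-0.71 and -0.64). CXCL1, a neutrophil chemokine, was at 2.10 ± 0.23, 60.0 ± 13 and 46.9 ± 1.0 CPM (SD, n = 2) in the 3 groups by rising dose, a log2 fold change of 4.84 and 4.48 at the 2 doses. CCL2, a monocyte chemokine, had log2 fold changes of 4.58 and 5.48, and CCL5, a T cell chemokine, 3.05 and 3.48. LCN2, an iron-binding protein of injured tubules, had 5.38 and 5.39. The complement gene C3 had log2 fold changes of 3.84 and 2.98 and a level of 41.8 CPM with DMSO, 598 CPM at 100 nM and 329 CPM at 300 nM. For these 5 targets the adjusted p was at most 5.3e-12 at 100 nM and 1.1e-12 at 300 nM.

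Of the 12 ligands tested, 7 had fewer than 10 reads in both DMSO libraries and passed the filter through the treated groups, so no count or median over the ligands is given. Of the other 5, 4 rose at both doses. TNF had 2 and 4 reads with DMSO, 310 and 397 with 100 nM and 773 and 720 with 300 nM, while IL1B had 2 and 6, then 296 and 554, then 444 and 480. The DMSO counts of TNF and IL1B are near the floor of 3 reads, so no fold is given. IL18, another cytokine of the interleukin-1 family, went from 1.22 ± 0.23 CPM to 10.7 ± 0.58 and 14.0 ± 1.27 CPM (SD, n = 2). Receptors were mixed. Of 16 tested, 7 rose and 2 fell at 100 nM and 7 rose and 4 fell at 300 nM, at medians of 0.16 and 0.13. That is 43.8% higher and 12.5% lower at 100 nM, and 43.8% and 25.0% at 300 nM, where 24.0% and 18.7%, then 34.8% and 31.1%, of all genes were called. With the offsets these counts were 9 and 6 at 100 nM, and 6 and 7 at 300 nM. TNFRSF1B, the second TNF receptor, had 0 and 4 reads with DMSO, 615 and 684 with 100 nM and 2131 and 2020 with 300 nM. It passed the filter through the treated groups, and without it 6 of the other 15 receptors rose at each dose in the TMM-scaled fit. TNFRSF9, a co-stimulatory receptor, had log2 fold changes of 2.57 and 2.72, and CD40, which signals to the MAP3K14 route, 0.89 and 1.10. TLR6, a receptor of bacterial lipopeptides, fell by 0.96 at 100 nM and fell by 2.48 at 300 nM.

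Genes that relay the signal from receptor to IKK moved in both directions: 12 of 30 rose and 7 fell at 100 nM, and 14 rose and 12 fell at 300 nM, at medians of 0.09 and 0.22. The shares were 40.0% and 23.3% at 100 nM, and 46.7% and 40.0% at 300 nM. Over all genes they were 24.0% and 18.7%, then 34.8% and 31.1%, so the relay shares were larger in both directions at each dose. With the offsets 11 rose and 10 fell at 100 nM, and 11 rose and 11 fell at 300 nM. TRAF1, an adaptor that binds BIRC2 and BIRC3, had log2 fold changes of 2.62 and 3.49. MYD88 and IRAK2, which relay signals of the interleukin-1 and Toll-like receptors, had 1.89 and 2.30, and 2.32 and 1.87. TBK1, a kinase related to IKK, fell by 0.80 at 100 nM and fell by 2.77 at 300 nM. Of 17 other brakes tested, 8 rose and 1 fell at 100 nM and 11 rose and 4 fell at 300 nM, at medians of 0.36 and 0.58. These are 47.1% and 5.88%, then 64.7% and 23.5%, where 24.0% and 18.7%, then 34.8% and 31.1%, of all genes were called. With the offsets 6 rose and 4 fell, then 9 rose and 4 fell. Of the 17, 1 had fewer than 10 reads in both DMSO libraries. Among the other 16, 7 rose at 100 nM and 10 at 300 nM in the TMM-scaled fit. TNIP1, a partner of TNFAIP3, was at 206 ± 4.4 CPM with DMSO, 627 ± 9.8 CPM at 100 nM and 760 ± 104 CPM at 300 nM (SD, n = 2), and ZC3H12A, a ribonuclease that degrades cytokine mRNA, at 23.6 ± 1.0, 122 ± 7.6 and 122 ± 11 CPM. Their log2 fold changes were 1.60 and 1.88, and 2.36 and 2.37. TNIP2 had 0.66 and 1.15, falling to 0.11 and 0.17 with the offsets, and N4BP1, a regulator of mRNA in immune responses, had 0.85 and 0.44. For the ligands, receptors, relay genes and brakes named here, the adjusted p was at most 6.0e-04 at 100 nM and 0.0050 at 300 nM. This limit leaves out BIRC2 and MAP3K14, and also TNF, IL1B and TNFRSF1B, which passed the filter through the treated groups. Leukocyte markers moved with these lists, 6 of 10 tested rising at 100 nM and 8 at 300 nM, as did endothelial markers, with 2 of 5 and 4 of 5. Of all genes 24.0% and 34.8% were called higher. With the offsets 5 and 6 leukocyte markers and 2 and 2 endothelial markers were called higher. Fewer than 10 reads in both DMSO libraries were held by 4 of the 10 and 1 of the 5. Without offsets, 3 and 5 of the remaining 6 leukocyte markers rose, and 1 and 3 of the remaining 4 endothelial markers. The part of these markers in the rise of the 10 genes and of these lists was not tested.

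**Figure D5:**
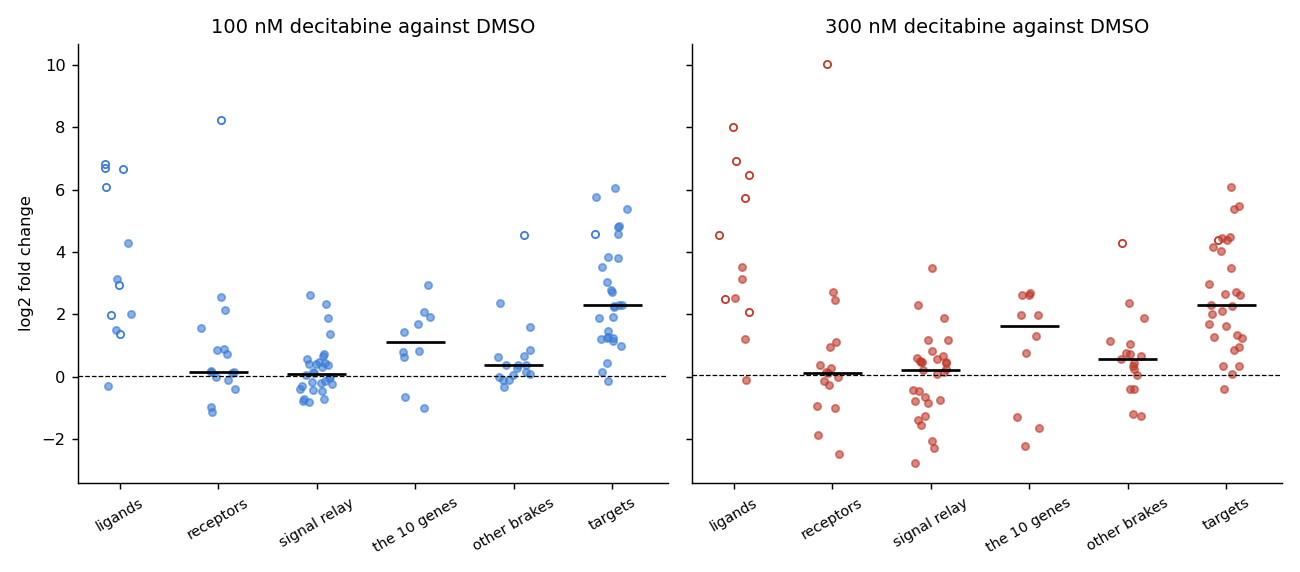
Log2 fold change against DMSO of the 10 genes and of the other pathway genes by role, at 100 nM (left) and 300 nM (right); each point is a gene (open: fewer than 10 reads in both DMSO libraries), the bar is the median of its role (none for ligands) and the dashed line the median of all genes tested. The median of the targets is 2.30 at each dose, and signal relay genes spread to both sides of 0.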

How the data were processed

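Whole-number counts of reads per gene were deposited by the authors, made with featureCounts 1.5.0-p3 on GENCODE 28 gene models, per the file headers. The recorded command has no paired-end or strand option, and 70.0% to 74.4% of counts from 1 to 10 were even, as counting both mates gives. The submitters' processing notes name STAR, SAMtools, featureCounts and DESeq2, with hg19 and GRCh37, yet the 56933 genes with the same versioned ID in GENCODE 29 all had its GRCh38 coordinates, which the text gives. A deposited matrix of log2 values from the authors, whose transformation is not given in the sources used here, served as an alternative. GENCODE 29 gave symbols for 58216 of 58381 genes.

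The filter filterByExpr kept 23160 genes, and TMM set the scaling. A single edgeR 4.0.16 quasi-likelihood fit of 6 libraries in 3 groups (limma 3.58.1, R 4.3.3) had 3 residual degrees of freedom and a biological coefficient of variation of 11.8%. Tests were two-sided, with Benjamini-Hochberg adjusted p under 0.05. A check on simulated counts put set fold changes into far fewer genes than were called here, as many up as down. It cannot show how the scaling fares under changes this broad. Replicates differed beyond counting noise (chi-square per gene 9.0 for DMSO, 24.4 at 100 nM and 44.0 at 300 nM). CPM and RPKM were computed from the counts. A count of 0 allows up to 3 reads per library, 0.031 to 0.0336 CPM, which covers counting error only, since reads carry no molecular identifiers. If both mates were counted, reads come in pairs, and this limit is higher in reads and in CPM.

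The members and lists were chosen with earlier results of these data known. Named are the 10 genes, from each of 5 pathway lists the 3 genes with the smallest adjusted p at each dose against DMSO and 1 CPM or more on average, and genes whose exons overlap a member's. Alternatives were other size factors, no filter, 2 groups alone, each library left out, a replicate block, length and GC offsets, DESeq2 1.42.0 and limma on the deposited log2 matrix.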

Additional observations from a re-analysis of the deposited data

How the results depend on the processing

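Each result was recomputed under 14 alternatives, 6 of which leave out 1 library. Of the 140 fold changes of the 10 genes at 100 nM against DMSO, 139 kept their direction and their side of the threshold, as did 138 of 140 at 300 nM against DMSO and 123 of 140 between the doses. The exceptions against DMSO came with the length and GC offsets: REL lost its call at -0.39 and -0.51, and BIRC3 at 300 nM reversed to 0.58. With those offsets the members called lower numbered 1 at each dose against DMSO, the members called higher between doses numbered 2, and 7007 genes were called lower at 100 nM against 4331 without. Between the doses NFKB1, not called in any fit, reversed to 0.0324 with DESeq2 size factors or the DESeq2 Wald test, to 0.0323 with the deposited matrix and to 0.13 with upper quartile factors. TNFAIP3 between doses ranged from -0.50 to 0.0144 with a library left out, reversing without 100 nM replicate 2. NFKBIA between doses also lost its call with 2 groups alone (adjusted p = 0.0718). Genes called higher between doses ranged from 2896 to 4901 with a library left out, lowest without 100 nM replicate 2, and genes called lower at 100 nM against DMSO from 2883 to 5036, lowest without 100 nM replicate 1. Where a group kept a single library, its spread was taken to be that of the other groups. Upper quartile factors moved the median log2 fold change of all genes at 300 nM from 0.05 to 0.29, and the offsets moved it to -0.11 there and to -0.13 at 100 nM. Calls higher between doses made up 46.0% of calls with TMM and 59.8% with upper quartile factors. The cause of these shifts was not tested.

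Deviations of libraries with the same replicate number correlated at 0.163, 0.174 and 0.394 over 14002 genes for the 3 comparisons, but each has only 2 pairs and the labels do not say that numbers mark shared cultures, so the samples share only a number. With the replicate block (2 residual degrees of freedom) the counts against DMSO were 8 higher and 2 lower at 100 nM and 7 and 3 at 300 nM, while TNFAIP3 was called lower between doses at -0.23 (adjusted p = 0.035), which made 4 members lower. Over all genes the block gave 11319, 15865 and 11343 calls at 100 nM, at 300 nM and between doses, against 9895, 15263 and 10054. The lowest count among the 10 genes was 112 reads, for REL at 300 nM, against a floor of 3 reads per library.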
